A study of Mus musculus with 18 samples.

Results

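Expression of 10 genes for cytokine receptor chains was measured in sorted mouse thymocytes on bead arrays: Il7r, Il2rb, Il2rg, Il4ra, Il21r, Il6ra, Il6st, Il27ra, Ifngr1 and Tgfbr2. They are the 10 genes of a named list, among 13894 genes with a tested probe, and the array's annotation gave them 23 of its 46237 probes. Of these 23 probes, 20 were detected on at least 3 of the 18 arrays and were tested, and each of the 10 genes kept at least 1. RNA came from CD4 single-positive (CD4 SP), CD8 single-positive (CD8 SP) and double-positive (DP) thymocytes sorted by flow cytometry, with 3 arrays for each population and genotype. The cKO mice carried a FoxN1-Cre driven deletion of exon 3 of Gpr177, the gene now named Wls, and C57Bl/6N mice of the wt genotype stood beside them. All mice were 4 to 6 weeks old and of the labelled strain C57Bl/6N. FoxN1-Cre acts in thymic epithelial cells, so the sorted thymocytes were not the cells that lost Wls, and the labels do not say whether wt mice carried Cre or a floxed allele. Nothing in the labels ties arrays to separate mice, so the p-values measure only the spread between these arrays.

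Wls escorts WNT proteins out of the cells that make them, and thymic epithelium is one such source. Cytokine receptors of this family work as pairs or trios of chains: a specific chain binds the ligand, and a shared chain such as the common gamma chain (Il2rg) or gp130 (Il6st) passes the signal to JAK kinases and STAT factors. The TGF-beta receptor differs, being a serine/threonine kinase that acts on SMAD proteins. In the thymus, IL-7 receptor is known to be switched off at the DP stage and to return on positively selected cells, which it then helps to survive.

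The log2 values below are normalized bead intensities, and a gene is described by its brightest tested probe unless another is named. A probe was called detected on an array where the deposited detection p-value was under 0.05. A difference was called where limma's p-value, adjusted over all 26676 tested probes, was under 0.05. Between 41.5% and 46.0% of probes were detected on an array, and replicate arrays correlated at 0.848 to 0.908. Median raw intensity averaged higher in cKO than in wt arrays of each population: 220.1 against 172.8 in CD4 SP, 253.0 against 221.1 in CD8 SP and 181.6 against 169.0 in DP. Cd40lg, a CD4 lineage gene, was detected in CD4 SP arrays and in no CD8 SP or DP array. The Cd8a probe was detected on no CD8 SP array, whereas Cd8b1, the beta chain of the coreceptor, averaged 11.02 in cKO and 10.91 in wt CD8 SP. In such sorted bulk samples, fewer cells that express a gene and less RNA per cell cannot be told apart.

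Il7r, Il6ra and Tgfbr2 were high in CD4 SP cells and Ifngr1 was high in DP cells, and their promoter stretches are shown for that reason. RefSeq promoter windows on GRCm38.p6 were given for 8 of the 10 genes, without Il2rb and Il27ra. Below are the 150 bases before each start, 5′ to 3′ on the gene's strand, with matches on either strand to TTCNNNGAA (the STAT consensus), GGAAGT (ETS), TGTGGT (RUNX) or GGGCGG (GC box) in capitals. The stretches lie at chr15:9529877-9530026 on the minus strand (Il7r), chr3:89913197-89913346 on the minus strand (Il6ra), chr9:116175364-116175513 on the minus strand (Tgfbr2) and chr10:19591799-19591948 on the plus strand (Ifngr1).
Il7r: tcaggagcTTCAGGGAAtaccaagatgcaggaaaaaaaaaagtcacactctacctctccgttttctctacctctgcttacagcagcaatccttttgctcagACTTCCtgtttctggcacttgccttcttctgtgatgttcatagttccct
Il6ra: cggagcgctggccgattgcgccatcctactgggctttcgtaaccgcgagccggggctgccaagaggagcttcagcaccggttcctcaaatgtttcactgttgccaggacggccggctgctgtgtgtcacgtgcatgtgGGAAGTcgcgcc
Tgfbr2: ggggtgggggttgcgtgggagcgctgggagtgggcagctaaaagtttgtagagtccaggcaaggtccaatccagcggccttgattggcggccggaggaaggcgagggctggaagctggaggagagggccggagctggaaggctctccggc
Ifngr1: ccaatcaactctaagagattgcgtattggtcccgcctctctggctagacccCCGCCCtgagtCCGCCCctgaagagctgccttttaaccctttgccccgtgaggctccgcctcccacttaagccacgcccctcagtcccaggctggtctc

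The Il7r window of 300 bases, from 250 before to 50 after the start, held 1 CpG, and 5.43% of the 32851 mouse windows held fewer. It was also the 1 window of the 8 with a TTCNNNGAA match, with its first base at -142 from the start. Of all windows, 8.3% held that motif. Its GGAAGT match had its first base at -49, in a motif that 23.8% of windows held, and a TGTGGT match lay at 3 bases past the start (16.8% of windows). The Il6ra window held 25 CpG and 2 GGAAGT matches, the nearer at -12. The Ifngr1 window held 14 CpG and 2 GGGCGG matches (35.7% of windows), and the Tgfbr2 window held 15 CpG and none of the 4 motifs. These are matches of letters, and no binding was measured here.

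Il7r, the alpha chain of the IL-7 receptor, was high in CD4 SP cells, lower in CD8 SP cells and mostly without detection in DP cells, in both genotypes. On CD4 SP arrays it read 9.72, 9.46 and 9.38 in cKO and 9.76, 9.65 and 9.58 in wt. On CD8 SP arrays it read 7.63, 7.34 and 7.76 in cKO and 7.72, 8.13 and 8.60 in wt. On DP arrays it read 4.23, 4.27 and 4.32 in cKO, none of them detected, and 5.49, 4.86 and 4.48 in wt, where only number 1 was detected. The 3 populations did not overlap in either genotype, with CD4 SP above CD8 SP and CD8 SP above DP. Because no cKO DP array detected Il7r, the cKO folds are bounds. Il7r was at least 25.1-fold higher in cKO CD4 SP than in cKO DP, and at least 6.51-fold higher in cKO CD8 SP. limma's adjusted p-values were 2.63e-09 and 1.65e-06. In wt cells the difference from DP was 4.72 ± 0.27 (standard error; 26.3-fold) in CD4 SP and 3.20 ± 0.27 (9.22-fold) in CD8 SP. limma's adjusted p-values for these were 9.87e-09 and 1.87e-06. CD4 SP exceeded CD8 SP by 1.95 ± 0.27 in cKO and 1.51 ± 0.27 in wt (adjusted p = 0.000394 and 0.00395 in limma). Within single BeadChips, the wt CD4 SP minus CD8 SP difference was 2.04, 1.52 and 0.98. Without background correction the wt CD4 SP minus DP difference was 2.29 on the log2 scale, still past the threshold.

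The other 4 Il7r probes gave the same order for CD4 SP cells and a less uniform one for CD8 SP cells. All 4 were detected on each CD4 SP array and on no DP array. ILMN_2659739 was detected on each CD8 SP array as well, and was at least 1.86-fold higher in cKO CD8 SP than in cKO DP and at least 2.50-fold higher in wt CD8 SP than in wt DP (limma adjusted p = 0.0070 and 0.00185). ILMN_1255750 and ILMN_2975500 were detected on no CD8 SP array, and ILMN_1237567 on 2, both wt. For these 3 probes the CD8 SP minus DP difference lay between 0.11 and 0.25 in cKO and between 0.07 and 0.57 in wt, and none passed the threshold. All 5 probes were called higher in CD4 SP than in CD8 SP cells in both genotypes, where 1.79% of all tested probes were called higher in cKO and 1.77% in wt. ILMN_1237567 and ILMN_1255750 are annotated to cDNA clones and the other 3 to the RefSeq transcript.

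**Figure D1:**
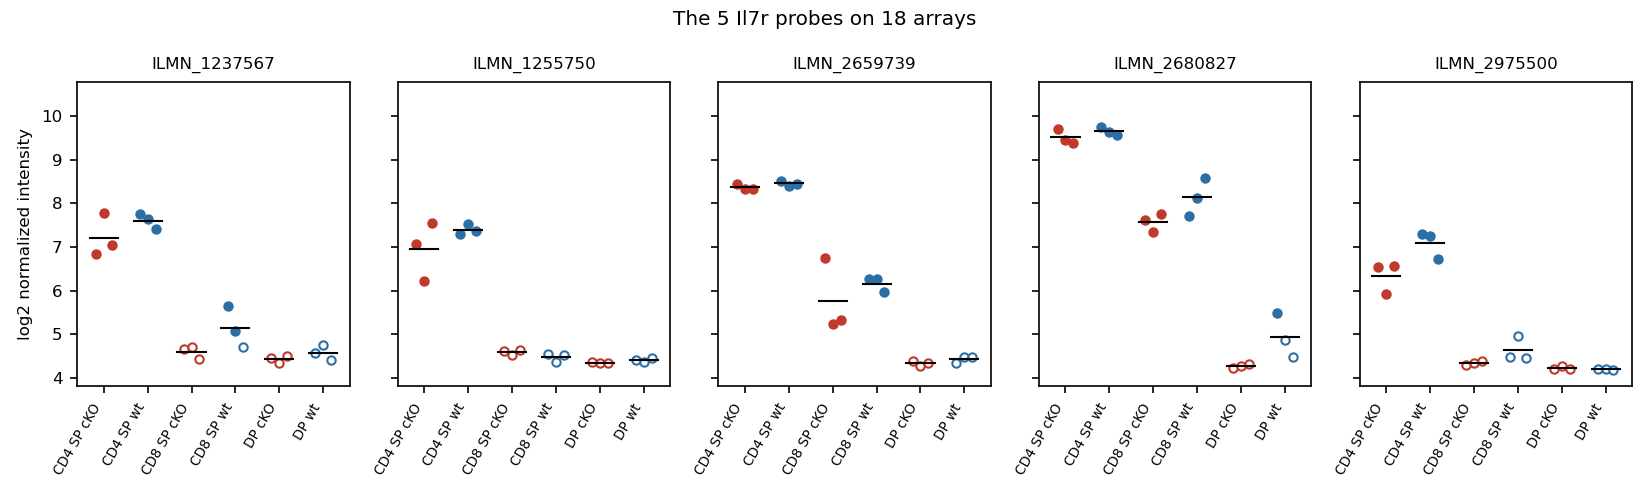
Log2 normalized intensity (y axis) of the 5 Il7r probes on each of the 18 arrays, by group; filled points are arrays where the probe was detected, open points arrays where it was not, and bars are group means. All 5 probes are detected on each CD4 SP array, while only ILMN_2680827 and ILMN_2659739 are detected on each CD8 SP array.

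Of its partner chains and relatives, Il2rg encodes the common gamma chain that IL-2, IL-4, IL-7 and IL-21 receptors share. Its single probe is annotated to a cDNA clone, not to the RefSeq transcript, and was detected on 11 arrays. Whether it measures the Il2rg transcript was not tested, so the values below are those of this probe. It read 5.02, 4.41 and 5.53 on cKO CD4 SP arrays and 4.54, 4.24 and 4.99 on cKO CD8 SP arrays, against 6.69, 7.14 and 6.89 on cKO DP arrays. Neither cKO SP group overlapped cKO DP. In wt it read 6.88, 6.13 and 5.20 in CD4 SP and 5.02, 5.13 and 4.49 in CD8 SP, against 7.36, 7.03 and 4.95 in DP, and both SP groups overlapped DP. The Il2rg probe was at least 3.77-fold lower in cKO CD8 SP than in cKO DP (limma adjusted p = 0.00995), a call lost with the arrays' median intensity as a covariate (adjusted p = 0.159). In cKO CD4 SP the difference of -1.92 ± 0.52 had a limma adjusted p of 0.0411. That call ended without any 1 of 10 arrays: all 3 of cKO DP, numbers 1 and 2 of cKO CD4 SP, cKO CD8 SP and wt CD8 SP, and number 2 of wt CD4 SP (adjusted p = 0.05002 to 0.179). It also ended with no filter on detection (0.0933), with median intensity as a covariate (-1.50, 0.158) and without the 3 cKO arrays of number 3 (0.109). In wt the differences were -0.38 ± 0.52 for CD4 SP and -1.57 ± 0.52 for CD8 SP, neither past the threshold. The wt CD8 SP difference was past it without wt DP number 3, at -2.31 (limma adjusted p = 0.00387), and with genotype and number together as a random block (0.0408), among 4 other settings (0.0386 to 0.0470). The difference between genotypes in Il2rg's population pattern was not past the threshold (limma's interaction F-test, adjusted p = 0.9997).

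Il2rb, the beta chain shared by IL-2 and IL-15 receptors, was higher in wt SP than in wt DP cells by a small step. It read 7.59, 7.08 and 7.11 in cKO CD4 SP and 7.30, 7.47 and 7.18 in cKO CD8 SP, against 6.39, 7.14 and 6.49 in cKO DP, where only CD4 SP overlapped DP. It read 7.36, 6.85 and 7.23 in wt CD4 SP and 7.07, 7.34 and 7.08 in wt CD8 SP, against 6.30, 4.99 and 6.21 in wt DP. Neither wt SP group overlapped wt DP, and wt DP number 2, at 4.99, was the only one of 18 arrays without detection. The difference from wt DP was 1.31 ± 0.32 for CD4 SP and 1.33 ± 0.32 for CD8 SP (limma adjusted p = 0.0182 and 0.0151). Without wt DP number 2 these were 0.89 and 0.91, not past the threshold (limma adjusted p = 0.101 and 0.0786). The CD4 SP call also ended without number 1 or 3 of wt CD4 SP (0.0759 and 0.0639), and the CD8 SP call without number 2 of wt CD8 SP (0.0618). Fits of only the groups compared ended both (0.133 and 0.0828), and median intensity as a covariate ended the CD8 SP call (0.119). In cKO the differences were 0.59 for CD4 SP and 0.65 for CD8 SP, neither past the threshold. Il2rb's interaction F-test in limma gave an adjusted p of 0.9997.

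Il4ra, the IL-4 binding chain, and Il21r, the IL-21 binding chain, were not called in any comparison, except under the other settings named below. The Il4ra probe lay between 4.55 and 6.39 and was detected on 11 arrays, on 1 of 6 CD8 SP arrays and on all 6 DP arrays. It came closest in cKO CD8 SP against cKO DP, at -1.19 ± 0.35 (limma adjusted p = 0.0510). Leaving out number 2 of wt CD4 SP, or number 1 or 3 of wt CD8 SP or wt DP, put that difference past the threshold (adjusted p = 0.0287 to 0.0498). So did 4 other settings (0.0346 to 0.0469), among them genotype and number together as a random block (0.0380). Il21r was detected on all 18 arrays, between 7.26 and 8.73. Its largest population difference was 0.85 ± 0.27 in wt CD4 SP against wt DP (limma adjusted p = 0.0789), and the 3 wt CD4 SP values, 8.58, 8.33 and 8.53, lay above the wt DP values of 7.67, 7.97 and 7.26. This difference was past the threshold in 4 other settings: no background correction (adjusted p = 0.0135), the authors' normalized values (0.0312), a strict filter (0.0485), and trend and robust variance (0.0196). Its second tested probe gave 0.52 there (limma adjusted p = 0.430), and another was detected on no array.

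**Figure D2:**
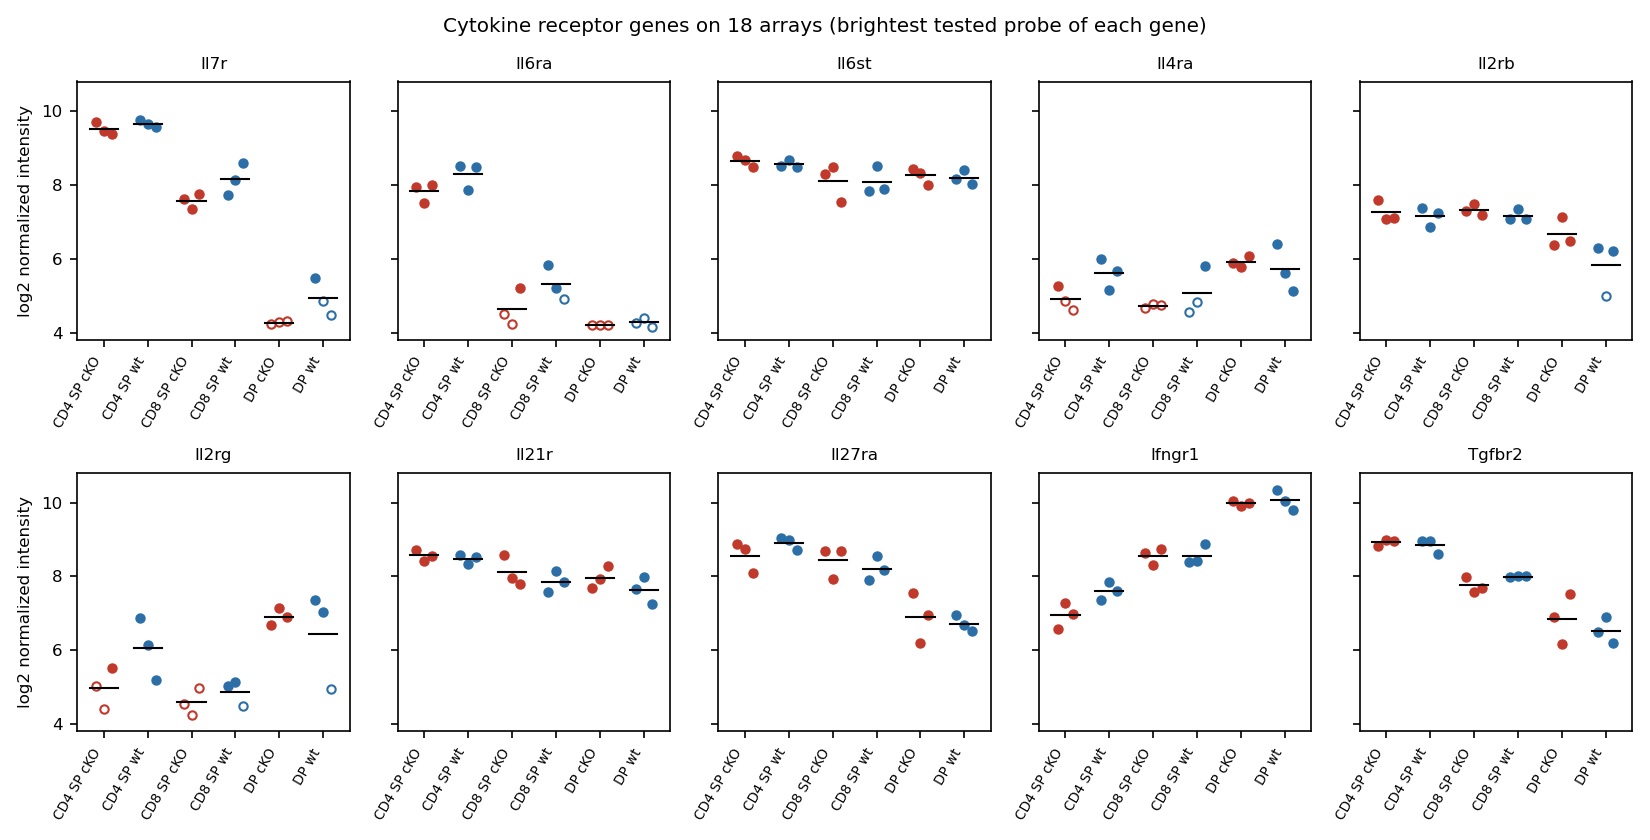
Log2 normalized intensity (y axis) of the 10 receptor genes on each of the 18 arrays, by group, each gene shown by its brightest tested probe; filled points are arrays with detection, open points arrays without, and bars are group means. Il7r and Il6ra are open in DP (Il7r except 1 wt array), Ifngr1 runs the other way with 9.89 to 10.04 in cKO DP and 9.80 to 10.34 in wt DP, and Il6st stays between 7.53 and 8.78.

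Il6ra, the IL-6 binding chain, was high in CD4 SP cells by its brightest probe, which lay at or near background elsewhere. It read 7.95, 7.52 and 8.01 in cKO CD4 SP and 8.52, 7.87 and 8.48 in wt CD4 SP. In CD8 SP it read 4.51, 4.22 and 5.22 in cKO, with number 3 detected, and 5.84, 5.21 and 4.90 in wt, with numbers 1 and 2 detected. No DP array detected it, and its DP values lay between 4.19 and 4.22 in cKO and between 4.15 and 4.41 in wt. CD4 SP overlapped neither CD8 SP nor DP in either genotype. Il6ra was at least 7.74-fold higher in cKO CD4 SP than in cKO DP and at least 10.9-fold higher in wt CD4 SP cells than in their DP counterparts (limma adjusted p = 5.02e-07 and 1.38e-07). CD4 SP exceeded CD8 SP by 3.18 ± 0.30 in cKO and 2.97 ± 0.30 in wt (adjusted p = 8.25e-06 and 1.94e-05 in limma). In wt CD8 SP, detected on 2 of 3 arrays, it was 1.39-fold higher than wt DP raised to the lowest detected signal (limma adjusted p = 0.0383). That call ended without any 1 wt DP array (0.0739 to 0.0984) and without number 1 or 2 of wt CD8 SP (0.154 and 0.0787), and in 4 other settings (0.0583 to 0.127). In cKO CD8 SP the difference from DP was 0.44 ± 0.30, not past the threshold. Il6ra's interaction F-test in limma gave an adjusted p of 0.9997. A second tested Il6ra probe was detected on 11 arrays, among them 1 cKO and 2 wt CD8 SP arrays and 1 cKO and 2 wt DP arrays. It gave a CD4 SP minus DP difference of 0.66 in cKO and 0.95 in wt, and was called in no comparison. The remaining probe was detected on no array.

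Il6st encodes gp130, which pairs with Il6ra, and Il27ra pairs with gp130 to bind IL-27. Il6st was detected on all 18 arrays and was called in no population comparison, its differences lying between -0.16 and 0.54. The 95% interval of its CD4 SP minus DP difference was -0.19 to 0.96 in cKO and -0.21 to 0.94 in wt. A second Il6st probe, detected on 11 arrays, was not called either. Il27ra was higher in both SP populations. It read 8.87, 8.74 and 8.08 in cKO CD4 SP and 8.69, 7.93 and 8.69 in cKO CD8 SP, against 7.54, 6.19 and 6.95 in cKO DP. In wt it read 9.04, 8.98 and 8.72 in CD4 SP and 7.92, 8.55 and 8.17 in CD8 SP, against 6.95, 6.68 and 6.52 in DP. SP and DP values did not overlap. The difference from DP was 1.67 ± 0.33 for CD4 SP and 1.54 ± 0.33 for CD8 SP in cKO (limma adjusted p = 0.00492 and 0.00789). In wt it was 2.20 ± 0.33 and 1.496 ± 0.33 (limma adjusted p = 0.000406 and 0.00994). The wt CD8 SP call ended without number 2 of that group (adjusted p = 0.0519), and both cKO calls ended in fits of only the groups compared (0.0626 and 0.0786). The cKO CD8 SP call also ended without the 3 cKO arrays of number 3 (0.0651). CD4 SP and CD8 SP were not called different for Il27ra. The other Il27ra probe was called higher in wt CD4 SP cells than in their DP counterparts (1.55, limma adjusted p = 0.0171) and in no other comparison.

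Ifngr1, the ligand-binding chain of the interferon gamma receptor, ran in the opposite direction. It read 6.57, 7.28 and 6.98 in cKO CD4 SP and 7.37, 7.85 and 7.60 in wt CD4 SP. In CD8 SP it read 8.62, 8.32 and 8.73 in cKO and 8.39, 8.41 and 8.88 in wt. In DP it read 10.04, 9.89 and 9.995 in cKO and 10.34, 10.03 and 9.80 in wt. The 3 populations did not overlap in either genotype, with CD4 SP lowest. Relative to DP it fell by 3.03 ± 0.25 in cKO CD4 SP (8.18-fold) and by 2.45 ± 0.25 in wt CD4 SP (5.46-fold), with limma adjusted p = 5.21e-07 and 6.46e-06. In CD8 SP it fell by 1.42 ± 0.25 in cKO and by 1.496 ± 0.25 in wt (adjusted p = 0.00197 and 0.00124 in limma). The CD4 SP minus CD8 SP difference was -1.61 ± 0.25 in cKO (limma adjusted p = 0.000968) and -0.95 ± 0.25 in wt (adjusted p = 0.0453 in limma). The wt call was lost with the BeadChip as a block (adjusted p = 0.0574), and the within-chip differences were -1.02, -0.56 and -1.28. It also ended without any 1 of 12 arrays: all 3 of wt CD4 SP, wt CD8 SP and cKO DP, number 3 of cKO CD4 SP, number 1 of cKO CD8 SP and number 2 of wt DP (adjusted p = 0.0525 to 0.187), and in 3 further settings (0.0700 to 0.140).

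Tgfbr2, the TGF-beta binding receptor kinase, followed the order of Il7r with smaller steps. It read 8.83, 8.98 and 8.97 in cKO CD4 SP and 8.96, 8.96 and 8.60 in wt CD4 SP. In CD8 SP it read 7.99, 7.59 and 7.69 in cKO and 7.97, 8.00 and 8.01 in wt. In DP it read 6.90, 6.16 and 7.51 in cKO and 6.49, 6.90 and 6.19 in wt. The populations did not overlap in either genotype. CD4 SP exceeded DP by 2.07 ± 0.29 in cKO and 2.32 ± 0.29 in wt (adjusted p = 0.000233 and 6.71e-05 in limma). CD8 SP exceeded DP by 1.47 ± 0.29 in wt (adjusted p = 0.00467 in limma), or by 0.78 over the mean of its tested probes (0.0902). In cKO that difference was 0.90 ± 0.29 (limma adjusted p = 0.0821), or 1.22 without cKO DP number 3 (0.0185), and it was past the threshold in 4 other settings (0.0147 to 0.0458). CD4 SP exceeded CD8 SP by 1.17 ± 0.29 in cKO (limma adjusted p = 0.0310), a call that ended without any 1 of 5 arrays: all 3 of cKO CD4 SP and numbers 2 and 3 of cKO CD8 SP (0.0739 to 0.118). It also ended in 4 other settings (0.0633 to 0.120). In wt the difference of 0.85 ± 0.29 was not past the threshold, but was past it without background correction (0.00364) and with the authors' normalized values (0.00549). Tgfbr2's interaction F-test in limma gave an adjusted p of 0.9997. A second tested probe was called higher in CD4 SP than in DP in both genotypes (1.12 in cKO and 1.17 in wt; adjusted p = 0.0247 and 0.0157 in limma). Another was called in no comparison, and the last was detected on no array.

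**Figure D3:**
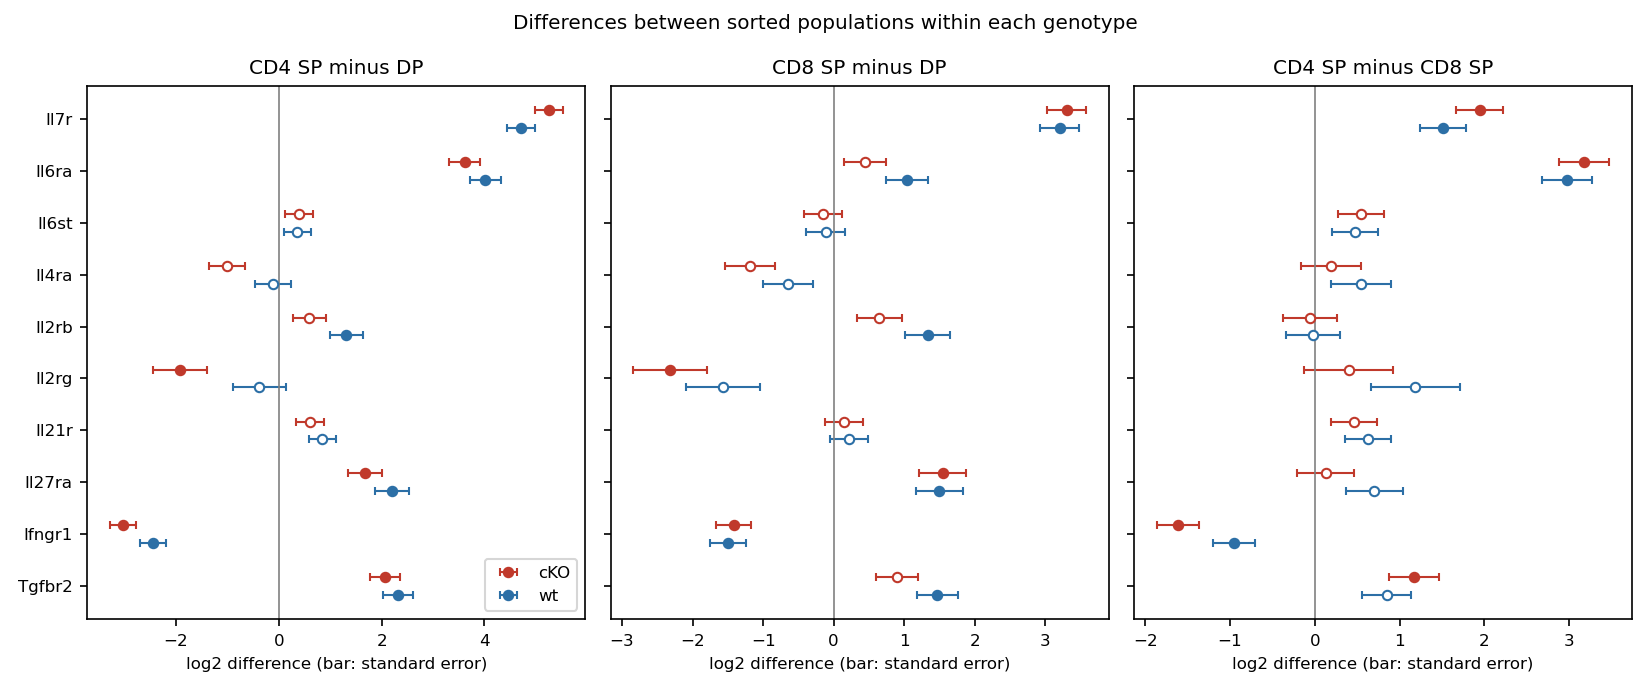
Log2 differences (x axis) between populations for the 10 receptor genes, with cKO above wt in each row; points are the model's estimates, bars their standard errors, and filled points are past the threshold. Ifngr1 lies left of 0 in all 3 panels. Points set against an undetected group, such as Il7r against DP in cKO and Il6ra against DP in both genotypes, have only the bounds given in the text, or the fold given for Il6ra in wt CD8 SP.

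Counted together, 4 of the 10 genes were called higher and 2 lower in cKO CD4 SP than in cKO DP, where 5.14% of all 13894 genes were called (2.43% higher and 2.71% lower). In wt, 5 were higher and 1 lower, against 6.19% of all genes (3.14% and 3.05%). For CD8 SP against DP, 2 were higher and 2 lower in cKO, against 6.88% of all genes (3.33% and 3.55%), and 5 were higher and 1 lower in wt, against 7.73% (3.66% and 4.07%). For CD4 SP against CD8 SP, 3 were higher and 1 lower in cKO, against 4.06% (1.53% and 2.53%), and 2 were higher and 1 lower in wt, against 3.56% (1.53% and 2.03%). The wt CD8 SP count fell to 3 without wt CD8 SP number 2. Each of the 29 calls had the same sign on all 3 BeadChips, but these are the values that gave the calls, so this is no independent check. The median difference of the 10 genes in CD4 SP against DP was 0.60 in cKO and 1.08 in wt, beside 0.04 and 0.06 over all genes. Because the 10 genes were chosen with earlier results of these data known, these counts and medians are no test against all genes.

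Some transcripts of the DP stage were also present in the CD8 SP arrays. Rag1, a recombinase gene of DP cells, averaged 9.97 ± 0.13 in cKO and 9.85 ± 0.06 in wt CD8 SP (SD, n = 3 each). It averaged 7.18 ± 0.60 and 7.24 ± 0.18 in cKO and wt CD4 SP, and 11.70 ± 0.18 and 11.88 ± 0.10 in cKO and wt DP. Over the DP stage list, of which 9 of 11 genes were tested, summed normalized intensity ranged from 3571.9 to 3914.7 in cKO CD8 SP and from 3321.5 to 3737.0 in wt CD8 SP. It ranged from 681.7 to 918.4 in cKO CD4 SP and from 564.4 to 976.7 in wt CD4 SP, and from 8005.7 to 8932.3 in cKO DP and from 8563.1 to 9291.9 in wt DP. That list holds Cd8b1, which CD8 SP cells also express, at 11.02 in cKO and 10.91 in wt CD8 SP. The CD8 SP sums are therefore not a measure of DP transcripts alone. Dntt averaged 8.73 in cKO and 8.60 in wt CD8 SP, against 9.52 and 9.73 in cKO and wt DP. Arpp21 averaged 5.47 in cKO and in wt CD8 SP, against 8.50 and 8.89 in cKO and wt DP. Cd4 averaged 6.82 in cKO and 6.71 in wt CD8 SP, against 8.35 and 8.46 in cKO and wt DP. Ptcra averaged 6.94 and 7.29 in cKO and wt CD8 SP, against 7.24 and 6.88 in cKO and wt DP. Cd24a was detected on 1 wt and no cKO CD8 SP array, but also on no cKO DP array, against all 3 wt DP arrays. Rag2, another recombinase gene, was detected on no SP array. The part of these transcripts in the CD8 SP levels of Il7r, Il6ra, Tgfbr2 and Ifngr1 was not tested.

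Innate-like and regulatory T cells are known to express Il2rb, Il7r or both. Sums over their marker lists were higher in SP than in DP arrays of each genotype, but not through every listed gene. Over the list for NK, NKT and innate-like T cells (5 of 12 genes tested), summed intensity ranged from 248.5 to 319.2 in cKO CD4 SP and from 274.5 to 487.2 in wt CD4 SP. It ranged from 321.6 to 429.9 in cKO CD8 SP and from 537.0 to 666.9 in wt CD8 SP, against 156.8 to 201.8 in cKO DP and 119.8 to 201.3 in wt DP. Members of this list differed. Xcl1 averaged 7.66 in cKO and 8.38 in wt CD8 SP and was detected on no DP array. Klrb1c averaged 6.58 and 7.06 in cKO and wt CD8 SP, against 6.37 and 6.70 in cKO and wt DP. Klrk1 averaged 6.00 and 6.02 in cKO and wt CD8 SP, against 6.25 and 5.48 in cKO and wt DP. Zbtb16, the defining factor of NKT cells, was not among the tested genes. Over the regulatory T cell list (4 of 6 genes tested), sums ranged from 453.1 to 528.2 in cKO CD4 SP and from 542.9 to 636.4 in wt CD4 SP. They ranged from 296.9 to 368.5 in cKO CD8 SP and from 342.0 to 391.5 in wt CD8 SP, and from 190.2 to 229.0 in cKO DP and from 135.5 to 308.6 in wt DP. Foxp3, the factor that defines these cells, was detected on all 18 arrays. It averaged 8.02 in cKO and 7.88 in wt CD4 SP, 8.07 and 8.21 in cKO and wt CD8 SP, and 7.55 and 7.36 in cKO and wt DP. The Foxp3 mean was thus no higher in CD4 SP than in CD8 SP. The part of these cells in the levels of Il2rb and Il7r was not tested.

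None of the 10 genes was called between cKO and wt in CD4 SP, CD8 SP, DP or the mean of the 3 populations, and 0% of all genes were called in each. The lowest adjusted p-values of the 10 genes in limma were 0.579, 1, 0.495 and 0.288 in that order. At an unadjusted p under 0.05 there were 1, 1, 2 and 2 of the 10 genes, beside 7.23%, 4.37%, 7.74% and 10.5% of all genes. The count of called receptor genes was 0 under each alternative run. In CD4 SP the gene with the smallest p was Ifngr1, whose cKO and wt values did not overlap (-0.66, 95% interval -1.19 to -0.13, and -0.80, -0.57 and -0.62 within the 3 BeadChips). In DP it was Il2rb, at 0.84 (0.16 to 1.51), with 2.15 within the second BeadChip, which held the undetected wt array, and 0.09 and 0.28 within the others. In CD8 SP it was Il6ra, at -0.67 (-1.30 to -0.04), with cKO and wt values that overlapped. These genes were picked by their p, and the 95% intervals here and below are not adjusted for the number of genes or probes.

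No Il7r probe was called between cKO and wt. Over the mean of the 3 populations the brightest probe gave -0.46 (95% interval -0.80 to -0.13; unadjusted p = 0.00949 and limma adjusted p = 0.288). By population the brightest probe gave -0.14 (-0.72 to 0.44) in CD4 SP, -0.57 (-1.15 to 0.005) in CD8 SP and -0.67 (-1.25 to -0.09) in DP. The DP value, and with it the mean, rests on signals mostly without detection. In CD4 SP, where all 5 probes were detected on each array, each gave a lower mean in cKO, with differences from -0.75 to -0.09, and 4 of them overlapped between genotypes. The fifth, ILMN_2975500, gave -0.75 (-1.26 to -0.24) in CD4 SP, with cKO values of 6.54, 5.92 and 6.58, all below wt values of 7.30, 7.26 and 6.73. No interaction between genotype and population was called for any of the 20 tested probes (limma's F-test, adjusted p = 0.9997 for each).

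**Figure D4:**
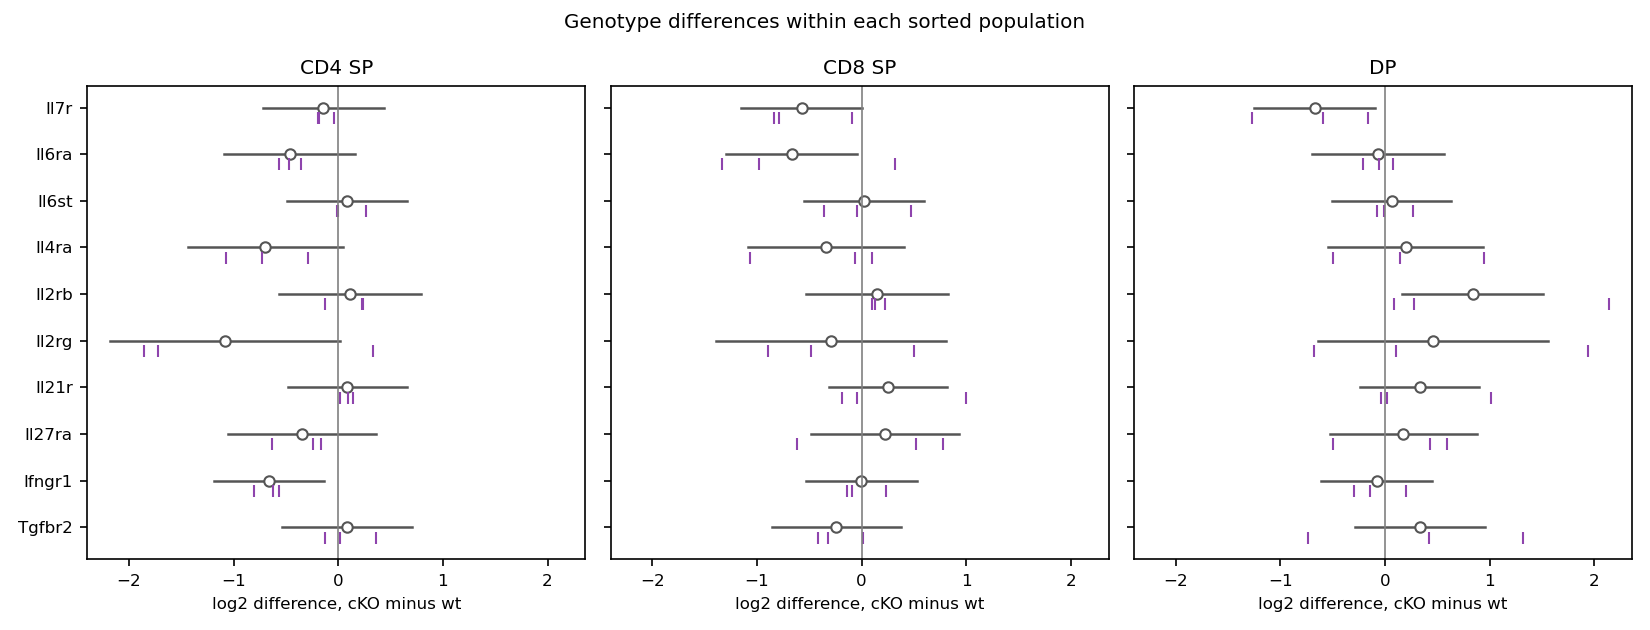
Log2 differences (x axis) between cKO and wt for the 10 receptor genes in each population; circles are the model's estimates, horizontal lines their 95% intervals, and short vertical ticks the difference within each of the 3 BeadChips. No gene passes the threshold, and the estimates run from -1.08 for Il2rg in CD4 SP to 0.84 for Il2rb in DP.

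A few marker sums of other cells also lay apart between genotypes, as given here, while every other list and population overlapped. The sums themselves were not tested. In CD4 SP the regulatory T cell sums given above were lower in cKO, with Tnfrsf18 at 6.37 in cKO and 7.47 in wt and Ikzf2 at 4.80 and 5.79, whereas the Foxp3 mean given above was higher in cKO. The gamma delta T cell list (2 of 6 genes tested) summed to 70.8 to 91.4 in cKO CD4 SP, against 50.8 to 68.8 in wt CD4 SP. In CD8 SP the sums for innate-like cells were lower in cKO. In DP the list for thymic epithelium and stroma (8 of 13 genes tested) summed to 618.8 to 624.8 in cKO, against 395.7 to 499.4 in wt. In CD8 SP that list ran the other way, at 573.2 to 647.8 in cKO against 653.6 to 789.0 in wt. Members of this list differed within each population. In DP, Psmb11 averaged 6.76 in cKO and 5.92 in wt, but Krt8 5.88 and 5.97. In CD8 SP, Ccl25 averaged 6.93 in cKO and 7.63 in wt, but Krt8 6.25 and 5.44 and Pdgfra 6.91 and 6.51. Foxn1 and Epcam, defining epithelial genes, were not among the tested genes. The part of these markers in the receptor differences was not tested.

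The rest of the pathway was counted over lists of other receptor chains, ligands, JAK and STAT proteins, SMAD mediators, inhibitors, and regulators and survival targets of the IL-7 receptor. Of 26 tested other receptor chains, 1 was called in wt CD4 SP against wt DP, where 6.19% of all genes were called. This was Il18r1, a chain of the IL-18 receptor, which was at least 5.91-fold higher (limma adjusted p = 0.000380). It was also the 1 called in wt CD4 SP against wt CD8 SP (3.56% of all genes called), at least 5.64-fold higher (limma adjusted p = 0.00179). In cKO, 0 of the 26 were called in CD4 SP against DP or against CD8 SP, where 5.14% and 4.06% of all genes were called. In CD8 SP against DP, 1 of the 26 was called in cKO and 2 in wt, all lower, where 6.88% and 7.73% of all genes were called. Ifngr2, the second chain of the interferon gamma receptor, fell by 1.01 in cKO and 1.03 in wt (adjusted p = 0.0229 and 0.0197 in limma). The cKO call ended without number 2 or 3 of cKO CD8 SP or number 1 of cKO DP, at up to 0.127, and the wt call without the same numbers of the wt groups, at up to 0.108. Both calls were also lost with median scaling and with median intensity as a covariate. Il17ra, a chain of the IL-17 receptor, gave -0.68 in wt CD8 SP against wt DP (limma adjusted p = 0.0462). This call was lost with the BeadChip block (0.0516) and without any 1 of 16 arrays, all but numbers 1 and 3 of cKO CD4 SP. It was also lost with median scaling, with median intensity as a covariate and without the 3 cKO arrays of number 3. Il2ra, the alpha chain of the IL-2 receptor, was detected on too few arrays to be tested.

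Of 10 tested ligands, 2 were called in CD4 SP against DP in each genotype, Il21 and Osm. Of all genes, 5.14% were called there in cKO and 6.19% in wt. Il21, the ligand of Il21r, was at least 8.97-fold higher in cKO CD4 SP than in cKO DP and at least 6.84-fold higher in wt (adjusted p = 8.61e-07 and 1.96e-06 in limma). It was detected on no CD8 SP or DP array, and was at least 8.64-fold higher in cKO CD4 SP than in cKO CD8 SP and at least 6.52-fold higher in wt (limma adjusted p = 2.36e-06 and 1.19e-05). Osm, oncostatin M, a ligand that signals through gp130, was at least 9.50-fold higher in cKO CD4 SP and at least 9.52-fold higher in wt CD4 SP than in DP (limma adjusted p = 6.61e-06 and 4.29e-06). It was also at least 5.15-fold higher in cKO CD8 SP and at least 3.14-fold higher in wt CD8 SP (limma adjusted p = 0.000246 and 0.00170). Osm was the 1 ligand called in CD8 SP against DP in each genotype, where 6.88% of all genes were called in cKO and 7.73% in wt. In wt, Osm was higher in CD4 SP than in CD8 SP by 1.60 (limma adjusted p = 0.0204), which ended with median scaling, with the covariate and without number 1 or 3 of wt CD4 SP or number 3 of wt CD8 SP, at up to 0.115. In CD4 SP against CD8 SP, 1 ligand was called in cKO and 2 in wt, where 4.06% and 3.56% of all genes were called. Il7 and Il6 themselves were not among the tested genes.

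Of 10 tested JAK and STAT genes, 1 was called, in 1 comparison, where 5.14% of all genes were called. This was Jak3, the kinase bound to the common gamma chain, which was at least 3.41-fold higher in cKO CD4 SP than in cKO DP (limma adjusted p = 0.00912, or 0.0514 without cKO DP number 3). Jak3 differed by 0.59 in wt, not past the threshold, and the interaction of genotype and population was called for 0% of all tested probes, Jak3 among them. Jak1, which binds Il7r, differed by 0.13 in cKO and 0.15 in wt CD4 SP against DP, neither past the threshold. Of 4 tested SMAD mediators, Smad3 was called, higher by 1.13 in cKO CD4 SP than in cKO DP (limma adjusted p = 0.0122), beside 5.14% of all genes. This call ended without number 1 of cKO CD4 SP or number 2 of cKO DP, at up to 0.0768.

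Of 11 tested inhibitors, 3 were higher in cKO CD4 SP than in cKO DP (Skil, Ptpn6 and Cish), where 2.43% of all genes were called higher. In wt, 3 were higher (Skil, Ptpn6 and Ski), against 3.14% of all genes, and none was lower in either genotype. Skil, a repressor of SMAD proteins, was higher by 1.97 in cKO and 2.44 in wt (adjusted p = 0.0114 and 0.00186 in limma), the cKO call ending without cKO DP number 2 (0.0556). Ptpn6, the phosphatase SHP-1, was higher by 0.85 in cKO and 1.04 in wt (adjusted p = 0.0340 and 0.00763 in limma). Its cKO call ended without number 1 or 3 of cKO CD4 SP or number 2 or 3 of cKO DP, at up to 0.154, and with median intensity as a covariate, and median scaling ended the calls in both genotypes. Cish, an inhibitor that STAT5 induces, was detected on 2 of 3 cKO CD4 SP arrays and on no cKO DP array. It was 2.79-fold higher in cKO CD4 SP than cKO DP raised to the lowest detected signal (limma adjusted p = 0.0181). This call ended without number 1 or 3 of cKO CD4 SP or any 1 cKO DP array, at up to 0.101. Ski, a relative of Skil, was higher by 1.75 in wt CD4 SP (limma adjusted p = 0.0255), which ended without any 1 wt CD4 SP array or wt DP number 1, at up to 0.115, and with no filter on detection.

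Of 12 tested regulators and survival targets, 2 were higher and 2 lower in cKO CD4 SP than in cKO DP, where 5.14% of all genes were called. In wt, 3 were higher and 2 lower, against 6.19% of all genes. Foxo1, which is known to drive Il7r transcription, was higher by 2.40 in cKO and 2.16 in wt (adjusted p = 0.00291 and 0.00589 in limma), and was detected on 1 of 3 cKO and 2 of 3 wt DP arrays. Bcl2, a survival target of IL-7 signals, was higher by 1.5 in cKO and 1.69 in wt (adjusted p = 0.0015 and 0.000466 in limma). Klf2, a target of Foxo1, was at least 2.30-fold higher in wt CD4 SP cells than in their DP counterparts (limma adjusted p = 0.000505). In cKO CD8 SP it was detected on 1 of 3 arrays and was 1.52-fold higher than cKO DP raised to the lowest detected signal (limma adjusted p = 0.0116). This call ended without number 1 of cKO CD8 SP (0.0641) and with the covariate. Bcl2l1, which encodes the DP survival factor Bcl-xL, fell in CD4 SP by 1.62 in cKO and by 1.53 in wt (adjusted p = 0.00289 and 0.00406 in limma). In CD8 SP it fell by 1.89 in cKO and by 1.93 in wt (adjusted p = 0.000972 and 0.000748 in limma). Of these 12 genes, 1 was called higher and 1 lower in cKO CD8 SP against cKO DP, where 6.88% of all genes were called. In wt, 1 was lower and none higher, against 7.73% of all genes. Gfi1, a repressor of Il7r, fell in CD4 SP by 1.40 in cKO and by 1.19 in wt (adjusted p = 0.00253 and 0.00788 in limma), the wt call ending without number 1 of wt CD4 SP (0.0525). Between CD4 SP and CD8 SP, 2 of these 12 genes were called higher and 1 lower in cKO, against 4.06% of all genes called, and 2 higher and none lower in wt, against 3.56%. Ets1, an ETS factor, was higher in CD4 SP by 0.93 in cKO and 0.92 in wt (adjusted p = 0.0203 and 0.0227 in limma), and each call ended with median scaling and without 4 and 5 single arrays of the groups compared. In cKO, Bcl2 was higher in CD4 SP by 1.25 (limma adjusted p = 0.00984), which ended with median scaling and without number 1 of cKO CD4 SP or number 3 of cKO CD8 SP, at up to 0.0567. Gfi1 was lower in cKO CD4 SP than in cKO CD8 SP, at -1.14 (limma adjusted p = 0.0173), which ended without number 1 of cKO CD4 SP or number 1 or 3 of cKO CD8 SP, at up to 0.0982. In wt, Foxp1, a forkhead factor known to repress Il7r, was higher in CD4 SP by 1.21 (limma adjusted p = 0.0236), which ended with median scaling, with the covariate and without any 1 wt CD8 SP array or number 2 or 3 of wt CD4 SP, at up to 0.0920. Without the 3 cKO arrays of number 3, the cKO calls of Jak3, Smad3, Skil, Ptpn6, Cish and Ifngr2 ended, as did those of Ets1, Bcl2 and Gfi1 between CD4 SP and CD8 SP. No gene of these lists was called between cKO and wt.

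Across the 18 arrays, the genes whose pattern was most like that of Il7r were Samhd1, Fxyd5 and Tesc, with Pearson's r of 0.98 for each among 13893 other genes. For Il6ra they were Zfp36l1 (0.98), Ephx1 (0.97) and Cytip (0.97). For Tgfbr2 they were Cd52 (0.98), Id2 (0.97) and Arhgef3 (0.97). For Ifngr1 they were Myb (0.98), Ccnd3 (0.97) and Fbxl12 (0.97). For Il27ra they were Ccr7, Vim and Evl (0.94 for each). The nearest genes of Il2rb were Ssbp1 (0.89), Spn (0.89) and Ptpa (0.86), and those of Il2rg were Tnfrsf10b (0.90), Tmem120b (0.87) and Ccnl1 (0.87). These values describe arrays that fall into 3 populations and share their normalization and depth.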

How the data were processed

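Total RNA (200 ng per sample) was labelled as biotin cRNA and hybridized to Illumina mouse BeadChips, per the labels' protocols. The deposited table holds mean bead intensity on a linear scale and a detection p-value per probe and array, per the file headers; the authors' way of computing the detection p-value is not stated there. A second deposited table holds intensity values normalized by the authors with an unstated method, and served as an alternative. From the deposited intensity, log2 values were computed with limma 3.58.1 in R 4.3.3 (neqc: background correction from the detection p-values, offset 16, quantile normalization). Probes detected at p under 0.05 on at least 3 arrays were tested (26676 of 46237), in 1 linear model with a mean for each of the 6 groups (12 residual degrees of freedom) and Benjamini-Hochberg adjustment over all tested probes. A gene is its tested probe with the highest mean. Of 35784 probes with a symbol, 31257 matched the RefSeq table and 937 were renamed. The fold bound of an undetected group uses the lowest signal among detected probes on each array. Where the other group was detected on some arrays only, its undetected values were kept as measured, so that fold is no strict bound. Figures were drawn with matplotlib 3.10.9, and the model was tested on simulated data.

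The 3 BeadChips carry the label numbers 1 to 3, per the file headers, and each holds all 6 groups, every group at 1 fixed position on the chip, so position and group cannot be told apart. Same-number residuals correlated at -0.149 to 0.314 (median 0.060, 10 of 27 pairs over 0.1, among them all 3 of cKO CD4 SP against cKO CD8 SP, at 0.124 to 0.314). The chip was used as a block, and genotype and number together as a random block, in alternatives. The receptor genes and the other lists were chosen with earlier results of these data known. Named genes of the pathway lists are all those called in a comparison where these were 4 or fewer. Otherwise they are the 4 with the largest difference among groups that do not overlap, except that Gfi1 is also given in wt CD4 SP against DP. JAK kinases may be named without a call. For likeness, the 3 genes of highest correlation are named for each receptor gene called between populations. Precision is limited by 3 arrays per group.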

Additional observations from a re-analysis of the deposited data

How the results depend on the processing

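Of 29 called differences in the receptor genes, 18 were called in each of 30 alternatives (12 other settings and 18 single arrays left out), and 0 reversed. Of 71 uncalled differences, 26 reversed under some alternative and 5 gained a call; the cause was not tested.

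The paired analysis with the BeadChip as a replicate block ended the call of Ifngr1 in wt CD4 SP against wt CD8 SP (adjusted p = 0.0574) and changed no other receptor call. Genotype and number together as a random block ended no receptor call and added Il4ra in cKO CD8 SP against DP (0.0380) and Il2rg in wt CD8 SP against DP (0.0408). It gave 1284 probes past the threshold in cKO CD4 SP against cKO DP and 1666 in wt, against 1261 and 1608 without it. Counts of probes past the threshold, in the order cKO CD4 SP against DP, cKO CD8 SP against DP, cKO CD4 SP against CD8 SP and then the same for wt, were 1261, 1848, 1047, 1608, 2231 and 912, with 0 in CD4 SP, 0 in CD8 SP, 1 in DP and 0 in the mean for cKO against wt. Fits of only the groups compared gave 807, 887, 289, 1028, 1455 and 488, and 0 in DP. Without background correction, cKO CD4 SP against DP gave 2051, cKO CD4 SP against CD8 SP 1880, wt CD4 SP against CD8 SP 1724, DP genotype 0 and the mean 1. The authors' normalized values gave 2021, 1773, 1655, 0 and 2 for these. Trend and robust variance gave 1958, 1835 and 1612 for the populations and 2 for genotype in CD4 SP. Median intensity as a covariate gave 1157 in cKO and 1206 in wt for CD8 SP against DP, and 1 for genotype in CD8 SP. Without the 3 cKO arrays of number 3 the cKO counts were 810, 1074 and 484, with 2 for genotype in DP and 32 in the mean. For genotype in CD4 SP and DP, no filter gave 4 and 11, a strict filter gave 1 and 7, and median scaling gave 0 in DP.

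Leaving out 1 array gave 1081 to 1924 probes for cKO CD8 SP against DP, 615 to 1002 for cKO CD4 SP against CD8 SP, 1246 to 2327 for wt CD8 SP against DP, and 493 to 955 for wt CD4 SP against CD8 SP. For genotype it gave 0 to 2 in CD4 SP, 0 to 1 in CD8 SP, 0 to 17 in DP (17 without wt DP number 3) and 0 to 3 in the mean. Receptor genes called in wt CD8 SP against DP numbered 3 to 6.

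Uncalled differences that reversed were as follows. Median scaling turned Il6st (0.0543) in cKO CD8 SP against DP and Il27ra (-0.0712) in cKO CD4 SP against CD8 SP. For genotype it turned Il6st (-0.0164), Il21r (-0.0167) and Tgfbr2 (-0.0187) in CD4 SP, Il6st in CD8 SP (-0.0771) and DP (-0.15), and Il6st (-0.0811) and Il27ra (-0.0276) in the mean. The authors' normalized values turned Il6st for genotype in CD8 SP (-0.0229). The covariate turned Il2rb in CD4 SP against CD8 SP (0.116 in cKO and 0.281 in wt). For genotype it turned Il6st (-0.143) and Il2rb (-0.178) in CD4 SP, Il6st (-0.106), Il2rb (-0.0132) and Ifngr1 (0.0355) in CD8 SP, and Il6st in the mean (-0.0787). The mean of tested probes turned Il6st in cKO CD8 SP against DP (0.176). For genotype it turned Il27ra in CD8 SP (-0.193), Il6st in DP (-0.0454), and Il27ra (-0.163) and Tgfbr2 (-0.0188) in the mean. Without the 3 cKO arrays of number 3, Il6st in cKO CD8 SP against DP was 0.00456 and Tgfbr2 for genotype in the mean was -0.0438.

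Leaving out 1 array gave ranges across 0 for uncalled differences. In cKO CD4 SP against CD8 SP these were Il27ra (-0.125 to 0.368) and Il2rb (-0.221 to 0.0324), and in wt Il2rb (-0.128 to 0.129). In cKO CD8 SP against DP they were Il21r (-0.0867 to 0.301) and Il6st (-0.344 to 0.129), and in wt Il6st (-0.336 to 0.012). In wt CD4 SP against DP they were Il4ra (-0.397 to 0.233) and Il2rg (-1.13 to 0.0783). For genotype they were Il2rb (-0.0507 to 0.223) and Tgfbr2 (-0.034 to 0.145) in CD4 SP, and Il6st (-0.166 to 0.307), Ifngr1 (-0.0883 to 0.156) and Il4ra (-0.596 to 0.0300) in CD8 SP. In DP they were Il6st (-0.0261 to 0.188), Il27ra (-0.147 to 0.531), Ifngr1 (-0.209 to 0.0626), Il6ra (-0.128 to 0.00202), Il4ra (-0.0927 to 0.537) and Il2rg (-0.29 to 0.916). In the mean they were Il27ra (-0.0895 to 0.137), Il6st (-0.00558 to 0.152) and Tgfbr2 (-0.049 to 0.176). Values of probes not above background carry only bounds.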
